A study of Mus musculus with 9 samples.

Results

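Adipokine genes encode the secreted products by which fat tissue signals to other organs, and 6 of them, Adipoq, Lep, Retn, Cfd, Rbp4 and Nampt, were followed through obesity, weight loss and renewed high-fat feeding in nuclei of mouse epididymal adipose tissue (epiAT, a visceral depot beside the testis). They were taken by symbol from the 32285 genes of the count matrices, by no rule on their values but with earlier results of these data known. All 6 had UMIs (unique molecular identifiers, each standing for an RNA molecule caught). All animals were male C57BL/6J mice, and each of 9 diet groups was 1 library of nuclei pooled from 5 mice, so no group had a replicate. The controls C, CC and CCC were fed chow to 18, 26 and 39 weeks of age. H mice had 12 weeks of high-fat diet (HFD) and were 18 weeks old, and HH mice had 25 weeks of HFD and were 31 weeks old. HC and HHC mice spent 8 weeks on chow after 12 and 25 weeks of HFD and were 26 and 39 weeks old. The 30-week-old CCH and HCH mice ended with 4 weeks of HFD, which in CCH followed chow only and in HCH followed the 12 weeks of HFD and 8 weeks of chow of HC. By the study's methods the chow of C was a low-fat control diet, and CC, CCC, HC and HHC ate another chow at the end.

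Adipoq encodes adiponectin, a circulating hormone that enhances insulin sensitivity, and Lep encodes leptin, which reports fat stores to the brain and restrains food intake. Retn encodes resistin, which in mice is made mainly by adipocytes and opposes insulin action. Cfd encodes adipsin, or complement factor D, the serine protease that cleaves factor B in the alternative complement pathway. Rbp4 carries retinol in blood, and Nampt, found outside cells as visfatin, is inside them the rate-limiting enzyme of NAD salvage and is made in most tissues. In fat, Adipoq, Lep, Retn and Cfd are regarded as products of mature adipocytes.

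In the GENCODE vM21 annotation of GRCm38, Adipoq lies on chr16:23146536-23158028, Lep on chr6:29060220-29073877, Retn on chr8:3655770-3660110, Cfd on chr10:79890853-79892655 and Nampt on chr12:32819545-32853349, all on the plus strand. Rbp4 lies on the minus strand at chr19:38116629-38125281. Cfd is the shortest, spanning 1803 bases from first to last exon, and Nampt the longest with 33805, which bears on counts from nuclei because intronic reads were counted. The RefSeq promoter table of GRCm38.p6 held all 6 genes. The 250 bases upstream of the start are shown for 4 of them, 5′ to 3′ on the plus strand: Lep as a gene whose level was lowest in C, Cfd and Nampt as the pair that was highest in C, and Adipoq as the gene that varied least. Starts are those of RefSeq, which for Nampt lies downstream of the first base of the GENCODE gene, so its window is inside the gene span given above. These windows are chr16:23146286-23146535 (Adipoq), chr6:29059971-29060220 (Lep), chr10:79890603-79890852 (Cfd) and chr12:32820085-32820334 (Nampt). Capitals mark matches on either strand to the TATA box (TATAA), the CCAAT box, the GC box (GGGCGG), half-sites of nuclear receptors (AGGTCA) and of the glucocorticoid receptor (AGAACA), or the C/EBP palindrome (TTGCGCAA).
Adipoq: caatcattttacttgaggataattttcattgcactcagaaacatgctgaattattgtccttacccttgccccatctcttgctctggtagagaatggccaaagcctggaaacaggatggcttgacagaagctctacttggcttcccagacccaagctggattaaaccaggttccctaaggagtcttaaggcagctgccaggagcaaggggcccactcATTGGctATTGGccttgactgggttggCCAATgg
Lep: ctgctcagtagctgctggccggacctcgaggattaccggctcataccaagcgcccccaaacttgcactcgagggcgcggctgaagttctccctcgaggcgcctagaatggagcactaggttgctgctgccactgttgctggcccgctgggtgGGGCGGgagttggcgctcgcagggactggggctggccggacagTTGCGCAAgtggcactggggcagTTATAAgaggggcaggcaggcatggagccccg
Cfd: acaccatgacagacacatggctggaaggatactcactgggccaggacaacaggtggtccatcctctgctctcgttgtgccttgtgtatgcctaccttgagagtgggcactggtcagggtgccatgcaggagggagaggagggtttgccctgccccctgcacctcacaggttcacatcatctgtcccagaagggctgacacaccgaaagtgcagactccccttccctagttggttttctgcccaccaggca
Nampt: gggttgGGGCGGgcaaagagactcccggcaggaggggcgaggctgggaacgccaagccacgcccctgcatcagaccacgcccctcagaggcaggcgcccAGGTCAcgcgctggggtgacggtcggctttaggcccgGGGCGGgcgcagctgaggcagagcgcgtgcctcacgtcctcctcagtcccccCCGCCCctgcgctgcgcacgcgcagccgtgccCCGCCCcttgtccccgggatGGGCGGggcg
The Adipoq window held 3 CCAAT matches, a motif found in 33.8% of the 32851 promoter windows of the same length. The Lep window held TTGCGCAA, found in 0.164% of windows, TATAA overlapping its reverse complement TTATA, found in 22.8%, and 1 GGGCGG. Nampt held 5 matches to GGGCGG, found in 32.7% of windows, and 1 to AGGTCA, found in 14.02%. None of the 6 motifs was in the Cfd window, and AGAACA, found in 16.1% of windows, was in none of the 6 genes' windows. GC content was 48.8% for Adipoq, 57.6% for Cfd, 65.6% for Lep and 75.6% for Nampt.

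After filtering, 73209 of 91687 barcodes were kept, from 4007 in CC to 12561 in HH, with a median of 2067 to 3213 UMIs per nucleus, and pairs of libraries shared 8 to 55 barcodes. Cell classes were assigned by markers that did not include the 6 genes (gated nuclei). Adipocyte-gated nuclei numbered 2414 (C), 869 (CC) and 1509 (CCC) on chow, 231 (H) and 466 (HH) on HFD, 840 (HC) and 423 (HHC) after weight loss, and 708 (CCH) and 489 (HCH) after 4 weeks of HFD. Their 8 adipocyte markers summed to 11865 to 16367 CPM (counts of a gene scaled to a fixed total of UMIs, the usual per-million scale), against 542 to 4000 CPM in nuclei of other classes, the highest of these in CC. The median adipocyte-gated nucleus had 7 or 8 of the 8 markers, and it had 1 or 2 of the 8 macrophage markers. The macrophage markers summed to 341 to 720 CPM in the adipocyte gate, beside 304 to 612 CPM in nuclei of classes other than macrophage. They were higher in the gate than in those nuclei in CCH (539.5 against 304 CPM) and lower in HH (399.6 against 593). CCC stood apart: 26.1% of its adipocyte-gated nuclei fell in clusters named adipocyte, against 75.3% to 96.4% in the others. The study's limit of 3000 detected genes per nucleus weighed unequally on adipocytes. Without it there were 652 adipocyte-gated nuclei in H, 1065 in HH, 1155 in HHC, 2633 in CCH and 1688 in HCH, but 3338 in C. Ratios between libraries without this limit are drawn in the plot of log2 ratios. In the text such a ratio is given only for Retn in H with C, so other ratios may also change without the limit.

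All 6 genes had more UMIs per nucleus in adipocyte-gated nuclei than in the pooled progenitor-, mesothelial-, macrophage- and epithelial-gated nuclei, in 9 of 9 libraries. These ratios are not adjusted for depth. In C the median adipocyte-gated nucleus had 4877.5 UMIs, against 2465 in macrophage- and 2500 in progenitor-gated ones, while in CCC the medians were 2488, 2255 and 2437. Lep was the most restricted, with a ratio of 4.90 in CC to 28.8 in H and a median of 12.1. The ratio was 2.71 to 17.3 for Retn, 2.38 to 14.5 for Adipoq, 2.41 to 11.6 for Rbp4 and 2.24 to 5.92 for Nampt. Cfd had the lowest median ratio, 2.65, and in CC it reached only 1.26. By CPM the order in CC was reversed. Adipocyte-gated nuclei had 527 CPM of Cfd there, against 627 in progenitor-, 591 in macrophage-, 583 in mesothelial- and 562 in epithelial-gated ones. Over those 4 classes Cfd was closer within a library than between libraries, at 0.897 to 0.980 UMIs per nucleus in C, 1.81 to 2.15 in CC, 0.199 to 0.367 in CCC and 0.0270 to 0.0445 in H. Free RNA gives such a level to nuclei that do not express a gene but its part in these UMIs was not tested. For other genes the evenness differed by gene and library. Retn ran from 0.106 to 0.113 per nucleus in C but from 0.0296 to 0.0811 in H, and Adipoq in CC from 0.299 to 0.660.

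**Figure D1:**
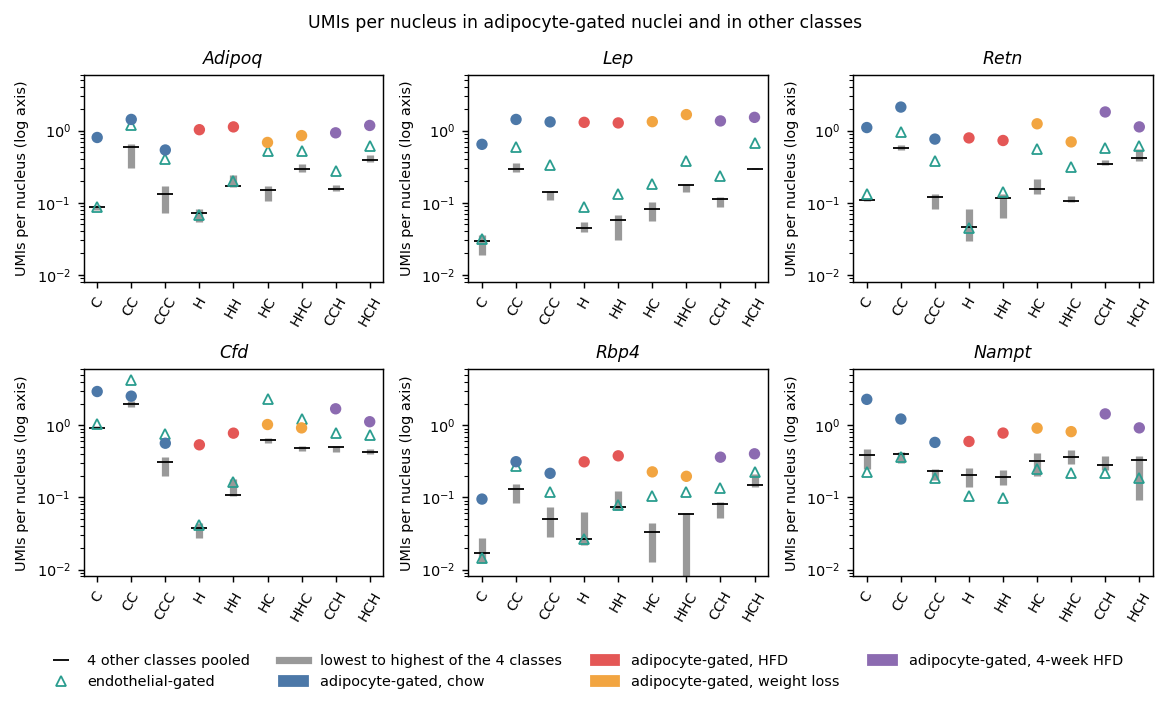
UMIs per nucleus (log axis) of the 6 genes in each library, in adipocyte-gated nuclei (filled circles, coloured by diet), in the 4 other classes pooled (black dashes, with the lowest and highest of the 4 as a grey bar, cut at the lower edge where a class had none) and in endothelial-gated nuclei (triangles). Lep in adipocytes stands clear of the other classes in every library, whereas Cfd in CC, CCC, HC and HHC lies below endothelial-gated nuclei: endothelial-gated nuclei of CC had 4.24 Cfd UMIs each and adipocyte-gated nuclei 2.54.

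For Cfd, endothelial-gated nuclei departed from the evenness of those other classes. They had more Cfd UMIs per nucleus than adipocyte-gated nuclei in CC (4.24 against 2.54), HC (2.29 against 1.03), HHC (1.22 against 0.922) and CCC (0.754 against 0.565). These are the 4 libraries whose names carry the prefix S019, and in the other 5, with prefix S075, adipocyte-gated nuclei had more. Mural-gated nuclei, 42 in CC and 98 in CCC, also had more Cfd per nucleus than adipocyte-gated ones there (2.86 and 0.796). In CPM, which relates a gene to all RNA of the class, Cfd was not highest in adipocytes: its median over the 9 libraries was 366 in endothelial-gated, 277 in mural-gated, 250.2 in adipocyte-gated and 241 in T or NK-gated nuclei, with overlapping ranges. In CC the T or NK-gated nuclei reached 1068 CPM. Adipoq in CC likewise had more UMIs per nucleus in adipocyte-gated (1.43) than in endothelial-gated nuclei (1.20), but fewer CPM, 297 against 337 in endothelial-gated, 353 in lymphatic endothelial-gated and 334 in mural-gated nuclei. By CPM Adipoq was higher in adipocyte- than in endothelial-gated nuclei in 7 of 9 libraries. The part of free RNA in these values was not tested. Nampt was ordered differently: its adipocyte level, a median of 223 CPM, was above that of macrophage-gated nuclei, a median of 111 CPM, in 9 of 9 libraries with no overlap of their ranges. Among the remaining 7 classes the Nampt ranges overlapped. The adipocyte range also overlapped some of these. It began at 144 CPM (H), and progenitor- and lymphatic endothelial-gated nuclei reached 170 and 147 CPM in C, where adipocyte-gated nuclei had 463.

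Detection per nucleus followed the same order. With each nucleus thinned to 1000 UMIs, 10.7% (C) to 33.9% (CCC) of adipocyte-gated nuclei had a Lep UMI, against 1.10% to 9.0% of macrophage-gated nuclei. Unthinned, these shares were 40.8% to 64.2% and 2.57% to 23.9%, at median depths of 2488 to 5275 UMIs in adipocyte-gated and 2057 to 3628 in macrophage-gated nuclei. For 5 of the 6 genes the thinned share was higher in adipocyte-gated than in macrophage- and progenitor-gated nuclei in all 9 libraries. The exception was Cfd, found in 40.7% of adipocyte-gated nuclei of CC (exact 95% interval 37.4 to 44.05) and in 41.7% of macrophage-gated ones (36.03 to 47.5), and in 45.0% of progenitor-gated ones (41.1 to 48.8). In C, 47.1% of adipocyte-gated and 31.1% of macrophage-gated nuclei had a Cfd UMI, and in H 8.89% and 1.26%. The study's methods estimated free RNA in these libraries and applied no correction, and its part in the Cfd UMIs of macrophage-gated nuclei was not tested.

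In the following, the level of a gene is its CPM in adipocyte-gated nuclei, and each ratio between 2 libraries has an exact 95% interval, conditional on their summed UMIs, for counting error alone. The comparisons of HH and of CCH with CC cross age and name prefix. A ratio was called when it was at least 2-fold with an interval that left out 1, and 7 of 36 member ratios over 6 comparisons were called, beside 21.5% of all gene ratios in the same comparisons. Adipoq levels on chow were 162 CPM (C), 297 (CC) and 185 (CCC), on HFD 249 (H) and 268 (HH), after weight loss 167 (HC) and 209.9 (HHC), and after 4 weeks of HFD 186 (CCH) and 289.7 (HCH). The chow libraries spanned the values of all others. Adipoq, adiponectin, was called in no comparison. Its log2 ratio was 0.62 for H with C (0.42 to 0.81), −0.15 for HH with CC (−0.30 to 0.00), −0.83 for HC with CC and 0.64 for HCH with CCH. With the UMIs per nucleus of the 4 other classes subtracted, HH with CC turned to 0.40 and HC with CC was −0.40.

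**Figure D2:**
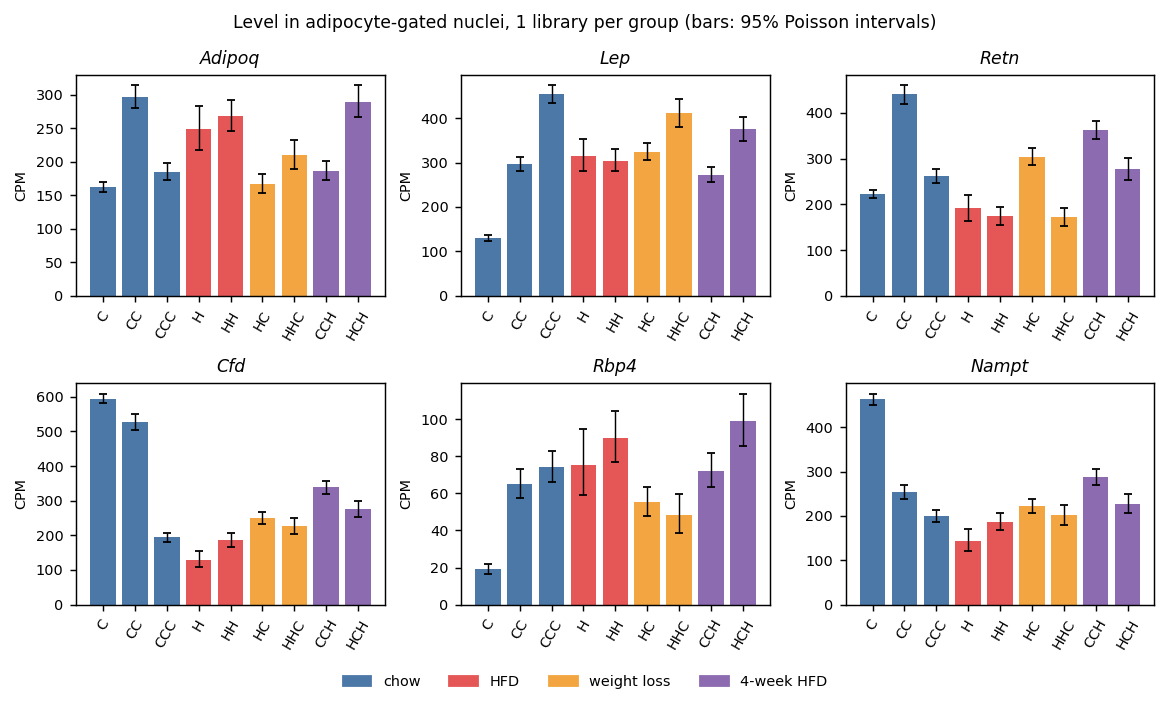
Level in CPM of each gene in adipocyte-gated nuclei of the 9 libraries, coloured by diet state, with exact 95% Poisson intervals. C had the lowest Lep (130.3 CPM) and Rbp4 (19.2 CPM) and the highest Cfd (595 CPM) and Nampt (463 CPM) of the 9 libraries.

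Lep levels on chow were 130.3 CPM (C), 297 (CC) and 454 (CCC), on HFD 315 (H) and 305 (HH), after weight loss 325 (HC) and 411 (HHC), and after 4 weeks of HFD 272 (CCH) and 375 (HCH). C was lowest and CCC highest, so the 3 chow libraries enclosed all the others. Leptin RNA was called higher in H than in C, at a log2 ratio of 1.27 (1.09 to 1.45), a comparison in which 26.7% of 13637 genes were called higher and 5.05% lower. HH and CC differed by 0.04 (−0.10 to 0.18), where 26.2% of genes were called higher and 8.90% lower. Against C, which shares the name prefix of HH, Lep in HH was higher by 1.22 (1.09 to 1.36), where 29.3% of genes were called higher and 6.17% lower. Both controls were younger than HH (31 weeks): C was 18 weeks old, and CC, with the other prefix, 26. After weight loss the ratios were 0.13 (0.01 to 0.25) for HC with CC and −0.14 (−0.27 to −0.02) for HHC with CCC. HCH had more Lep than CCH by 0.46 (0.32 to 0.60), below 2-fold, and 17.9% of genes were called higher and 2.25% lower there. CCH was called above C by 1.06 (0.94 to 1.18), where 7.22% of genes were called higher and 3.38% lower, and was close to CC, at −0.12. The TMM scaling factors of the adipocyte fits below were 0.857 (C), 1.15 (H), 1.09 (HH) and 0.934 (CCH). Scaled by them, the Lep ratios of H, HH and CCH to C would be below 2-fold. With the UMIs per nucleus of other classes subtracted, Lep was 236 CPM in CC, 291 in HH, 304 in HC and 249 in CCH, so each then lay above CC. HHC stayed below CCC, at 368 against 406 CPM.

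Retn levels on chow were 223 CPM (C), 440.3 (CC) and 262 (CCC), on HFD 191 (H) and 174 (HH), after weight loss 303 (HC) and 172 (HHC), and after 4 weeks of HFD 362 (CCH) and 277 (HCH). Both HFD libraries lay below all 3 chow libraries, and HHC lay with them. Resistin RNA was called lower in HH than in CC, at −1.34 (−1.51 to −1.17), whereas H differed from C by −0.22 (−0.44 to −0.00) and HH from C by −0.36. It was lower in HC than in CC by 0.54 and in HHC than in CCC by 0.61 on the log2 scale, below the 2-fold limit in both. CC carried the highest Retn in adipocyte-gated nuclei and also in macrophage-gated nuclei (183 CPM). Without the gene limit the ratio of H to C was −0.75.

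Cfd levels on chow were 595 CPM (C), 527 (CC) and 194 (CCC), on HFD 129.6 (H) and 185 (HH), after weight loss 250.2 (HC) and 227 (HHC), and after 4 weeks of HFD 339 (CCH) and 276 (HCH). H and HH had the lowest values, with CCC, the oldest chow library, just above them. Adipsin RNA was called lower in H than in C, at −2.20 (−2.47 to −1.94), in HH than in CC, at −1.51 (−1.67 to −1.35), and in HC than in CC, at −1.07 (−1.19 to −0.96), where 4.21% of genes were called higher and 7.18% lower. HHC and CCC differed the other way, by 0.22 (0.05 to 0.40), where 6.00% of genes were called higher and 9.76% lower. Because 2.01 of the 2.54 Cfd UMIs per adipocyte-gated nucleus of CC were matched in other classes, the per-nucleus level of those classes was also subtracted. This left 408 CPM (C), 110.3 (CC) and 88.1 (CCC) on chow, 121 (H) and 159.8 (HH) on HFD, 95.7 (HC) and 108 (HHC) after weight loss, and 239 (CCH) and 172 (HCH) after 4 weeks of HFD. C then stood above all others, the ratio of H to C was −1.76, that of HH to CC turned to 0.53 and that of CCH to CC from −0.64 to 1.12. The ratio of HC to CC, at −0.21, was then below 2-fold. Without subtraction, scaling by the TMM factors of the adipocyte fits below (0.854 for HC, 0.926 for CC) also brings it below 2-fold.

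Rbp4 levels on chow were 19.2 CPM (C), 64.9 (CC) and 74.3 (CCC), on HFD 75.2 (H) and 89.9 (HH), after weight loss 55.2 (HC) and 48.3 (HHC), and after 4 weeks of HFD 72.2 (CCH) and 98.9 (HCH). It was the least abundant of the 6 in every library, and C was the single low library. The retinol carrier was called higher in H than in C, by 1.97 (1.57 to 2.36), and in HH and CCH against C, by 2.23 and 1.91. Against CC the ratios were 0.47 (0.19 to 0.75) in HH and 0.15 (−0.10 to 0.40) in CCH, where 6.23% of genes were called higher and 7.61% lower. HHC was below CCC by 0.62 on the log2 scale. With the UMIs per nucleus of other classes subtracted, Rbp4 was 38.0 CPM in CC, 72.3 in HH, 56.2 in CCH and 47.2 in HC. HH and CCH then stood further above CC, and HC, below CC before, stood above it. HHC stayed below CCC, at 33.6 against 56.9 CPM.

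Nampt levels on chow were 463 CPM (C), 254 (CC) and 199 (CCC), on HFD 144 (H) and 186 (HH), after weight loss 223 (HC) and 201 (HHC), and after 4 weeks of HFD 288 (CCH) and 226 (HCH). C was the highest library, and H and HH were below every chow library. Nampt was called lower in H than in C, at −1.68 (−1.94 to −1.44), and in HH against C, at −1.32 (−1.47 to −1.16). Against CC, HH was lower by 0.45 on the log2 scale and HC by 0.19, and HHC and CCC differed by 0.01 (−0.17 to 0.19). Nampt and Cfd followed each other over the 9 libraries (Pearson r = 0.90), Nampt and Lep went opposite ways (r = −0.79), and Adipoq and Retn were unrelated (r = 0.04). These correlations are given without a test, since the libraries differ in age and depth. C had both the lowest Lep and the highest Nampt and Cfd of the 9 libraries, so it weighs on these values, and no correlation was taken without it.

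**Figure D3:**
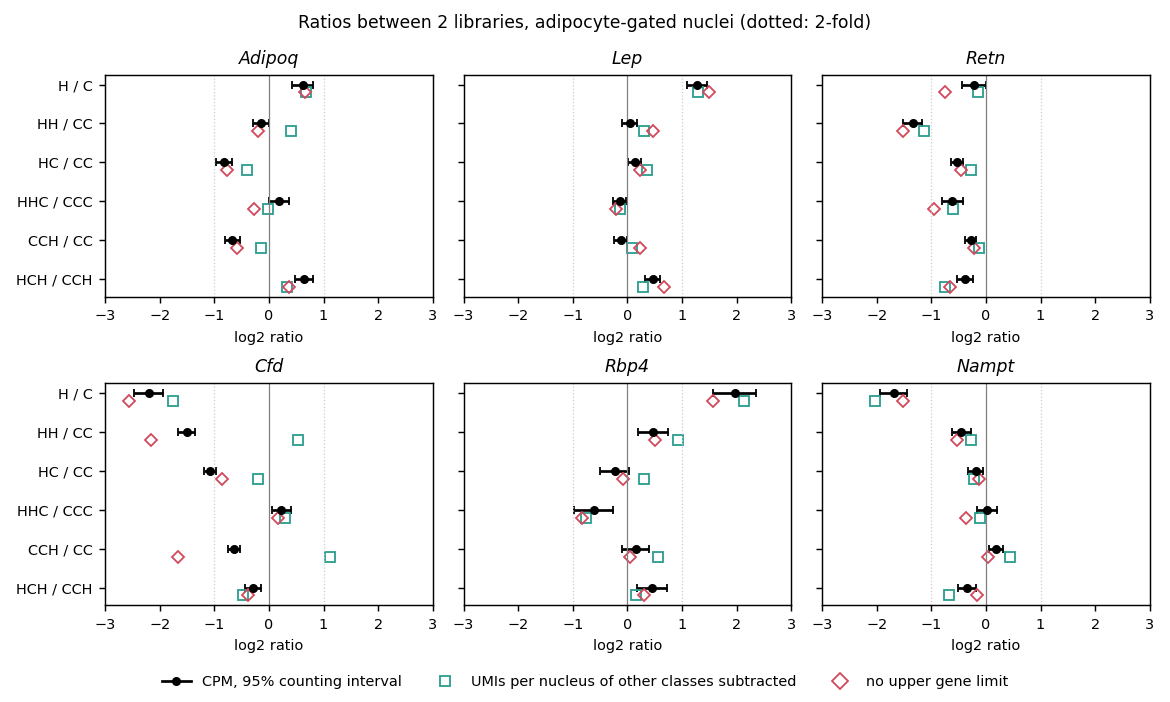
Log2 ratios of 2 libraries in adipocyte-gated nuclei (black points with 95% counting intervals; dotted lines, 2-fold), with the same ratio after subtraction of the UMIs per nucleus of other classes (squares) and without the upper gene limit (diamonds). H with C has most called members, 4 of 6, beside 26.7% of all genes called higher and 5.05% lower, and Cfd with CC as control is the value that moves most, from −1.51 to 0.53 for HH.

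To set the groups against the spread between libraries, counts were summed per library and fitted with edgeR's quasi-likelihood test, taking libraries of one diet state as replicates: chow (C, CC, CCC), HFD (H, HH), weight loss (HC, HHC) and 4-week HFD (CCH, HCH). Libraries of a state differ in age and feeding time, and the HFD libraries all have prefix S075 while the weight loss libraries all have S019. In adipocyte-gated nuclei 9.36% of 14718 genes were called between HFD and chow at an adjusted p (Benjamini-Hochberg) under 0.05, and none of the 6 members was. Cfd came nearest, with a log2 fold change of −1.76 ± 0.53 (SE) and an adjusted p of 0.064 in edgeR, followed by Nampt (−1.16 ± 0.45, 0.11) and Retn (−1.0 ± 0.42, 0.14). Rbp4 (0.48 ± 0.44), Lep (−0.10 ± 0.37) and Adipoq (0.03 ± 0.30) had adjusted p of 0.47 to 0.95. With a library left out, Rbp4 ran from 0.11 (without C) to 0.72 (without CC) and Retn from −1.16 (without CCC) to −0.61 (without CC). The direction of Lep turned to 0.87 with the set in the library name as a covariate, to 1.10 with set and no gene limit, and to 0.25 without CCC. The Cfd and Nampt values depended on single chow libraries: without CCC they were −2.13 and −1.43 with edgeR adjusted p of 0.023 and 0.0495, and without C they were −1.38 and −0.61 with 0.11 and 0.22. DESeq2 called both, at 0.0060 and 0.047, and edgeR called Cfd without the gene limit, at −2.27 and 0.029.

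Between weight loss and chow, 0.00679% of genes, 1 of 14718, were called in adipocyte-gated nuclei, and no member was, with log2 fold changes from −0.92 ± 0.51 for Cfd to 0.37 ± 0.37 for Lep. Lep was 0.05 without C and 0.71 without CCC, and Cfd −0.56 and −1.30. edgeR had 1395 genes at an unadjusted p under 0.05 there, and DESeq2 called 124. In a fit of the 4 libraries of the age-matched pairs alone (HC with CC, HHC with CCC), with age as a block, edgeR called 683 of 13445 genes and none of the members, with Cfd at −0.34 ± 0.27, Lep at 0.09 ± 0.17 and Retn at −0.48 ± 0.17 (adjusted p 0.16). For 4-week HFD against chow 0% were called by edgeR, with 1190 at an unadjusted p under 0.05 and 50 called by DESeq2, and members ranged from −0.66 ± 0.50 (Cfd) to 0.63 ± 0.43 (Rbp4). Without C these were −0.30 and 0.25, and without CCC Cfd was −1.04.

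Over all kept nuclei, 30.7% of 20248 genes were called between HFD and chow, 14.2% of the 20248 lower, and 4 of the 6 members were lower. Cfd summed to 502 (C), 707 (CC) and 197 CPM (CCC) on chow and to 18.7 (H) and 61.2 CPM (HH) on HFD. Its log2 fold change was −3.82 ± 0.76, with an edgeR adjusted p of 0.013. Lep, Retn and Nampt likewise had both HFD libraries below all 3 chow libraries, at −2.17 ± 0.56 (adjusted p 0.025), −2.29 ± 0.64 (0.031) and −1.30 ± 0.32 (0.022). Adipoq (−1.55 ± 0.59, 0.079) and Rbp4 (−0.77 ± 0.66, 0.38) did not pass. With the set in the library name as a covariate edgeR called 0 genes over all kept nuclei, so no member passed there. In such totals fewer adipocytes and less RNA per adipocyte cannot be told apart, and adipocyte-gated nuclei made up 2.40% of kept nuclei in H and 3.71% in HH against 21.6% to 27.4% in the chow libraries. These calls rested on single libraries: without H or without HH, which leaves a single HFD library, none of them held. Without CC, Lep (edgeR adjusted p 0.071), Retn (0.084) and Nampt (0.061) did not pass, nor did Lep without CCC (0.054). The log2 fold changes stayed below 0 with any library left out. Cfd ran from −4.86 (without HH) to −3.20 (without H), Lep from −2.56 (without C) to −1.83 (without CCC), Retn from −3.09 (without HH) to −1.73 (without CC) and Nampt from −1.55 (without CCC) to −0.98 (without C). Between weight loss and chow 6.08% of genes were called, and none of the members. With age as a block in the 4 libraries of the age-matched pairs, edgeR called Retn (−1.41 ± 0.17, adjusted p 0.041) and Rbp4 (−1.13 ± 0.16, 0.046) lower after weight loss, among 1038 of 17509 genes. The error in this fit comes from how far HC with CC and HHC with CCC disagree, with each gene's spread drawn towards that of other genes. The fit was not run with a library left out. The adipocyte-gated share of kept nuclei moved with these totals, from 21.7% in CC to 16.3% in HC and from 27.4% in CCC to 5.01% in HHC. The size of this fall depended on how adipocytes were taken. By clusters the share was 18.7% in CC and 15.8% in HC, and 7.74% in CCC and 7.39% in HHC. Without the gene limit the gated share was 32.3% in CCC and 10.5% in HHC.

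In nuclei gated as other cells, Cfd was again lower on HFD. It fell by 3.77 ± 0.76 on the log2 scale in macrophage-gated nuclei (edgeR adjusted p 0.013), where 26.8% of genes were called, and by 3.67 ± 0.70 in progenitor-gated nuclei (0.021), where 13.4% were. Cfd in the 4 pooled classes without adipocytes was at 0.0375 UMIs per nucleus in H and 0.108 in HH, against 0.308 (CCC) to 2.01 (CC) on chow, and the part of free RNA in these calls was not tested. Nampt fell by 1.41 ± 0.28 in progenitor-gated nuclei (0.021), and its change in macrophage-gated nuclei was −0.41 ± 0.21 (0.17). Without H or without HH, which leaves a single HFD library, the calls of Cfd in both classes and of Nampt in progenitor-gated nuclei did not hold. Without CC the progenitor values had edgeR adjusted p of 0.053 (Cfd) and 0.059 (Nampt). Cfd ran from −4.79 (without HH) to −3.05 (without CC) in progenitor-gated nuclei. In macrophage-gated ones it ran from −4.92 (without HH) to −3.08 (without H). Nampt in progenitor-gated nuclei ran from −1.69 (without HH) to −1.18 (without H).

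**Figure D4:**
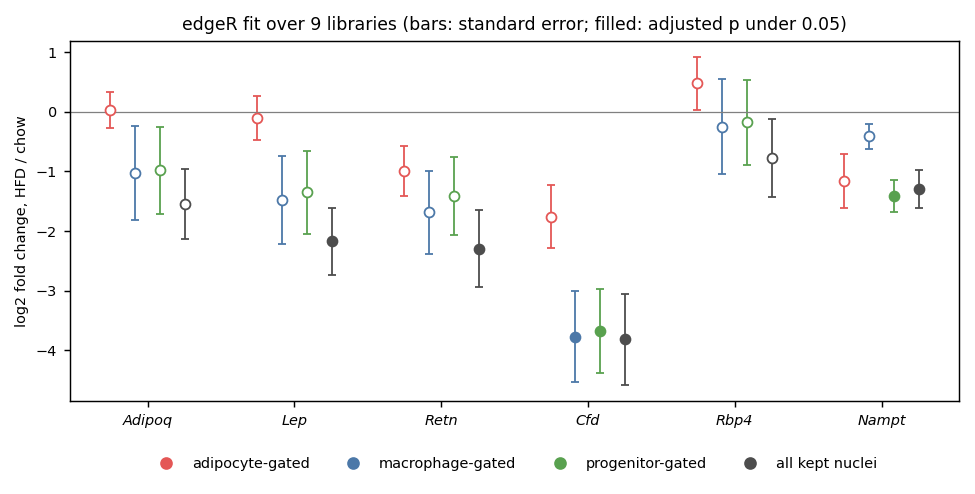
Log2 fold change of each gene between HFD and chow in the edgeR fit, with its standard error, in adipocyte-, macrophage- and progenitor-gated nuclei and in all kept nuclei (filled where the adjusted p was under 0.05). No adipocyte-gated value is filled, whereas Lep, Retn, Cfd and Nampt are filled for all kept nuclei.

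The partners of these genes were followed in lists. In adipocyte-gated nuclei between HFD and chow, no gene passed among 6 tested of 9 adipokine receptors, 3 of 4 genes of adiponectin assembly, 4 of 4 of leptin signalling and 6 of 6 of NAD salvage, beside 9.36% of all genes called. Their median log2 fold changes were, in that order, −0.86, −0.24, −0.47 and −0.49, with 0.00 over all genes. Adipor2, an adiponectin receptor and the most abundant of the receptors, had −0.19 ± 0.64, and Cmklr1, the chemerin receptor, −1.52 ± 0.59. Erp44, which retains adiponectin in the secretory pathway, had −0.24 ± 0.28 and Ero1l −0.63 ± 0.29. Stat3, which carries the leptin signal, had −0.57 ± 0.29, Ptpn1, a phosphatase that dampens it, −0.37 ± 0.37, Nmnat3, which converts nicotinamide mononucleotide to NAD, −0.98 ± 0.45 and the NAD-dependent deacetylase Sirt1 −0.64 ± 0.34.

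The lists with a call, read against the same 9.36%, had 1 of 5, 1 of 3 and 3 of 14 genes called. Of 5 complement genes tested, C3ar1, the receptor for C3a, rose by 3.8 ± 0.92 (adjusted p 0.039), from 1.17 to 5.47 CPM in chow libraries to 58.5 in H and 29.1 in HH. C3ar1 is made by macrophages. In macrophage-gated nuclei it had 46.6 (CC) to 68.8 CPM (CCC) on chow, 267 in H and 249 in HH. The 8 macrophage markers summed to 472 to 583 CPM in adipocyte-gated nuclei of chow libraries, 518 in H and 399.6 in HH, and their part in the result was not tested. Of 3 tested among 5 retinol genes, Aldh1a1, which makes retinoic acid, fell by 1.48 ± 0.32 (0.030), from 1320 to 2098 CPM on chow to 697 in H and 790.0 in HH. Of 14 tested among 21 other secreted products, Metrnl rose by 2.85 ± 0.63 (0.032) and Angptl4, an inhibitor of lipoprotein lipase, by 1.39 ± 0.29 (0.029), and Agt, angiotensinogen, fell by 3.43 ± 0.76 (0.032). The median of the 14 was −0.09. Agt ran from 16.2 (CCC) to 50.5 CPM (C) on chow and was 3.13 in H and 4.09 in HH. The low values rest on few UMIs, as the adipocyte-gated nuclei of H held 956940 UMIs in all. Metrnl was higher still in macrophage-gated nuclei, at 49.5 to 86.6 CPM on chow, 202 in H and 204 in HH, and the part of macrophage RNA in its adipocyte value was not tested. All 5 calls in adipocyte-gated nuclei (C3ar1, Aldh1a1, Metrnl, Angptl4 and Agt) were lost with the set in the library name as a covariate, without CC and without HH, where edgeR called 0 genes (4248, 3250 and 2593 at an unadjusted p under 0.05). Without H edgeR called 2 genes, both higher, so Aldh1a1, Agt and at least 1 of the 3 others were lost there too. Over all kept nuclei Aldh1a1 and Agt were again lower, at −1.93 ± 0.28 and −2.21 ± 0.39, and C3ar1 and Metrnl higher, at 3.78 ± 0.60 and 2.48 ± 0.32, while Angptl4 did not pass (0.29 ± 0.18, adjusted p 0.25). Further genes that passed there were C5ar2 (2.99 ± 0.54), Cfp, which encodes properdin (0.93 ± 0.27), and Ptpn1 (0.63 ± 0.18) as higher, and Nrg4 (−3.55 ± 0.87), C1qtnf9 (−2.93 ± 0.75) and Apln (−2.59 ± 0.71) as lower. In all, 3 of 5 complement genes and 1 of 4 of leptin signalling were higher, 1 of 4 retinol genes was lower, and of 17 other secreted products 1 was higher and 4 were lower. Adipor2 and Cdh13, a further adiponectin-binding receptor, passed there as lower (−2.15 ± 0.66 and −1.79 ± 0.49), and Stra6l and Cap1, the latter a resistin-binding protein, as higher (3.20 ± 0.78 and 0.82 ± 0.18). That is 2 of 9 receptors each way, beside 14.2% of all genes lower and 16.5% higher. Cell shares moved with these totals: macrophage-gated nuclei were 4.92% to 9.38% of kept nuclei on chow, 31.6% in H and 27.9% in HH, while the adipocyte share fell as given above. Over the 9 libraries Cap1, Stra6l, C3ar1 and Metrnl had higher mean CPM in macrophage- than in adipocyte-gated nuclei, and Adipor2 had 1328 CPM in adipocyte- and 166 in macrophage-gated ones. With set as a covariate, without H or without HH, edgeR called 0 genes over all kept nuclei (7150, 6177 and 6002 at an unadjusted p under 0.05), so these calls were lost.

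The genes whose log2(CPM + 1) in adipocyte-gated nuclei ran most like each member, over 9 libraries and 7172 genes of at least 20 CPM, were taken by Pearson correlation as a description. They were 3300002I08Rik, Pbdc1 and Ndufa4 for Adipoq (r = 0.90 to 0.88), Vgll3, Gm36827 and Cdr2 for Lep (0.98 to 0.97) and N4bp2l1, Tesk2 and Tspan7 for Retn (0.89). For Cfd they were Stim1, Fkbp5 and Mipol1 (0.96 to 0.94), for Rbp4 Nln, Marc1 and Golim4 (0.95 to 0.94) and for Nampt Fkbp5, Stard7 and Maob (0.97 to 0.95). Fkbp5, a glucocorticoid-induced co-chaperone, was the one gene shared by 2 members. In macrophage-gated nuclei the genes most like Nampt were C330007P06Rik, Tesk2 and Pus10 (0.87 to 0.85).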

How the data were processed

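Nuclei of snap-frozen epiAT had been sequenced with 10x Genomics 3′ libraries. The authors deposited raw UMI counts per gene and barcode, made with Cell Ranger 6.1.2 per the submitters' processing notes on mm10 (GRCm38), intronic reads included by the study's methods. By the study's methods free RNA was estimated with SoupX and no correction was judged necessary. Here nuclei needed 500 to 3000 genes and no more than 40000 UMIs. Scrublet (in scanpy 1.11.5) was run on each library with an expected rate of 0.8% per 1000 nuclei, and where it marked under 0.5%, top-scoring nuclei were dropped at that expected rate instead. This was so in CC, CCC, HC and HHC, the libraries with prefix S019, where 3.31% (CC) to 7.28% (HHC) were dropped. In the S075 libraries its own marks were used, 1.92% (CCH) to 5.77% (HH), so this step went with the set. Nuclei above 3000 genes were not screened for doublets. Library totals ran from 22599619 (CCC) to 66615262 (HHC) UMIs, and CPM totals omit mitochondrial genes and Malat1. Intervals cover counting error only.

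A nucleus took 1 of 12 classes (8 markers each) when its marker UMIs were improbable, by a Poisson model, at the level of those markers in other classes of the same library (p under 0.001, a lead of 0.01 over the next class, at least 2 markers). This gate replaced a count of detected markers after that was seen to fail in CC, so it was chosen after seeing the data, as was the subtraction of UMIs per nucleus. Clusters (leidenalg 0.10.2) were an alternative. Ratios used genes with at least 20 UMIs over both libraries. Tests across genes used edgeR 4.0.16 (quasi-likelihood, TMM, filterByExpr, Benjamini-Hochberg) with DESeq2 1.42.0 as an alternative, checked on simulated counts. p-values measure the spread between libraries of a diet state, which differ in age and feeding time. In the fit of the age-matched pairs they rest on how far those pairs disagree, with each gene's spread drawn towards that of other genes. The members and lists were chosen with earlier results of these data known. Named genes were the members, list genes past an adjusted p of 0.05 in a contrast (given here for HFD in adipocyte-gated and in all kept nuclei) or else the 2 of highest mean CPM in a list, and the 3 genes most like each member (at least 5 UMIs in every library). Alternatives were other scaling, filters, gates, control libraries and free RNA corrections, the set in the library name as a covariate, age-matched pairs as a block, and leaving out each library.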

Additional observations from a re-analysis of the deposited data

Results flagged for a closer look

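Cfd after weight loss differed from the chow control in opposite directions in the 2 weight loss groups: its log2 ratio was −1.07 in HC with CC and 0.22 in HHC with CCC, a difference of −1.30. Lep did so by less, with 0.13 in HC with CC and −0.14 in HHC with CCC, a difference of 0.27. Both were picked out because the counting intervals of the 2 ratios lay on opposite sides of 0. With 1 library per group neither difference was tested. For Cfd the 2 weight loss libraries were close, at 250.2 CPM (HC) and 227 (HHC), and the chow controls lay further apart, at 527 (CC) and 194 (CCC). In CC the other classes had 79.1% of the Cfd UMIs per nucleus of adipocyte-gated nuclei. After subtraction of the UMIs per nucleus of other classes the Cfd ratios were −0.21 and 0.30.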

How the results depend on the processing

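No paired analysis was possible by replicate number because each diet group had 1 library. The 2 age-matched pairs of weight loss and chow were fitted with age as a block, an alternative chosen after seeing the data. Libraries of a diet state differ in age and feeding time, diet state and the set in the library name cannot be fully told apart, and H gave only 231 adipocyte-gated nuclei. Genes called in adipocyte-gated nuclei for HFD against chow (1377) became 2490 with DESeq2, 3413 without the filter on low counts, 3814 without the gene limit 0 with set as a covariate and 1322 with both of these, and ranged from 0 (without CC, and also without HH) to 1573 when 1 library was left out, with 2 without H. For weight loss the 1 call became 683 with the age-matched pairs as a block, 124 with DESeq2, 819 without the filter, 2 without the gene limit and 0 with set as a covariate, with the stricter gate and with clusters, and 0 to 1 with a library left out. For 4-week HFD the 0 calls became 50 with DESeq2 and 688 without the filter, and 0 to 9 with a library left out. With set as a covariate the calls fell to 2 in macrophage-gated nuclei and 0 over all kept nuclei for HFD, and to 513 over all kept nuclei for weight loss, where DESeq2 made 3002. Leaving out a library gave 0 to 4350, 0 to 6865 and 0 to 1238 in these 3 comparisons, with 0 without H and without HH for both HFD comparisons, and without CC, CCC or HHC for weight loss. With set as a covariate no member kept its call: the edgeR adjusted p (Benjamini-Hochberg) over all kept nuclei were 0.0816 for Cfd and for Nampt, 0.166 for Retn and 0.199 for Lep. The cause of these changes was not tested.

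Some directions turned. Adipoq in adipocyte-gated nuclei, HFD against chow (0.03), was −0.026 with RLE size factors and with DESeq2, −0.043 without the filter, −0.0025 without doublet removal, −0.046 without the gene limit, −0.22 with the looser gate and −0.12 to 0.37 with a library left out. Lep there (−0.10) was 0.87 with set as a covariate, 0.13 without the gene limit, 0.022 with the stricter gate, 1.10 without the gene limit and with set, and −0.41 to 0.25 with a library left out. Lep after weight loss was −0.04 without the gene limit and with set, and Rbp4 over all kept nuclei on HFD (−0.77) was 0.91 with set. The called Cfd ratio of HH to CC (−1.51) was 0.53 after subtraction of the UMIs per nucleus of other classes, an alternative chosen after seeing the data, as was the gene limit with set. The same subtraction turned ratios below 2-fold, such as Adipoq in HH with CC (0.40) and Cfd in CCH with CC (1.12). Subtracting mesothelial CPM gave no Cfd value against CC. Of the other fold changes 280 held their direction and side of the threshold, 11 gained and 28 lost a call, and of the ratios 183 moved by less than their interval and 125 by more.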
